A study of Homo sapiens with 8 samples.

Results

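The genes described here make purine and pyrimidine nucleotides. They were taken from a list of 36 gene symbols, and each was followed by the probe set (a group of short probes read out as 1 value) that was listed with exactly 1 gene symbol and had the highest mean over the 8 arrays. Such a probe set was found for 34 of the 36, among 19775 genes in all. ADSS2 and UCK2 had none. The samples, hybridized to Affymetrix U133 Plus arrays, were RNA of Kasumi-1, an established human line of acute myeloid leukemia (AML) that carries the AML1-ETO fusion. Cells were electroporated with in vitro transcribed RNA (IVT-RNA) coding for wild type NR4A1 (NR4A1 WT, 3 arrays), for NR4A1 with a zinc finger of its DNA binding domain mutated (NR4A1 CEAA, 2 arrays) or for GFP as the transfection control (GFP, 3 arrays), and RNA was taken 6 h later. All 3 groups were the same line given the same kind of RNA, so GFP stands for electroporation and RNA uptake as well. The comparison of NR4A1 WT with GFP asks which transcripts follow the receptor, and the comparison with NR4A1 CEAA asks which of them depend on its DNA binding domain.

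Cells build purines stepwise on the sugar phosphate PRPP until the ring of inosine monophosphate (IMP) is closed, and IMP is then turned into AMP or GMP. Pyrimidines are built the other way round, the ring first and the sugar after, ending in UMP and CTP. Ribonucleotide reductase and thymidylate synthase supply the deoxynucleotides for DNA, kinases add phosphates, and salvage enzymes recover free bases and nucleosides. AML blasts divide with a high demand for these products, and several AML drugs are nucleoside analogs or inhibitors of this synthesis.

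The deposited values are log2 intensities, and a difference of 1 is a doubling. Levels of different probe sets are not amounts of RNA and were not set against each other. The array medians over all probe sets lay between 4.755 and 4.802. AK4 was near them, above its array's median in 4 of 8 arrays, and the other 33 genes were above it in 8 of 8. The markers of this myeloblast line KIT (13.45 to 13.78), CD34 (7.44 to 7.88), MPO (14.34 to 14.43), ANPEP (5.85 to 6.25) and RUNX1T1 (11.07 to 11.61) were above the median in 8 of 8 arrays, while MS4A1, CD14 and PPBP, markers of B cells, monocytes and platelets, were below it in all 8. CD3D (5.04 to 5.38), CD3E (4.60 to 4.98) and HBB (5.30 to 5.69), markers of T cells and red cells, lay close to it, and CD33 and HBA1 had no probe set of their own symbol alone. The 3 probe sets of NR4A1 did not separate the groups. The brightest read 6.47, 6.61 and 6.53 in the NR4A1 WT arrays, 6.56 and 6.52 in the NR4A1 CEAA arrays and 6.58, 6.50 and 6.28 in the GFP arrays. The IVT-RNA held the coding sequence, the positions of the probes are not given here, and the arrays therefore do not check which RNA a sample received.

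Purine ring assembly was the role with the most genes lower after NR4A1 WT. At a Benjamini-Hochberg adjusted p below 0.05, limma called 10 of the 34 genes lower than in GFP (29.4%, against 10.3% of all genes) and 3 higher (8.82%, against 9.97% of all genes). Among the 12813 genes whose mean lies above the median of all probe sets, where all 34 are found, the fit called 18.6% of genes lower and 17.6% higher, and 11 and 3 of the 34. The median log2 fold change was -0.06 over the 34 genes and 0.00 over all genes, with a range of -0.70 to 0.47. Rank Product, the test named in the methods of the study, called 2 genes lower (2.13% of all genes), PPAT and DHODH, and none of the 34 higher (2.24% of all genes). Nothing in the labels shows that arrays of a group came from separate cultures, and p-values measure the spread between these arrays only. In RNA of a whole culture, fewer cells that make a transcript and less of it per cell cannot be told apart.

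In the NR4A1 CEAA arrays, limma called 6 of the 34 genes lower than in GFP (17.6%, against 12.1% of all genes) and 2 higher (5.88%, against 7.14% of all genes). Both shares are near those of all genes, and among the brighter genes the fit called 22.6% lower and 14.4% higher, and 6 and 3 of the 34. Rank Product called none of the 34 in either direction (1.36% of all genes lower and 0.475% higher), and 7 were lower and 3 higher at an unadjusted limma p under 0.05. Set directly against NR4A1 CEAA, NR4A1 WT was lower for 11 genes (32.4%, against 13.4% of all genes) and higher for 5 (14.7%, against 18.0% of all genes). Among the brighter genes these shares were 21.9% and 28.8% of genes, and 11 and 8 of the 34. Rank Product called PPAT lower there (0.915% of all genes) and none of the 34 higher (1.83% of all genes), where 8 were higher at an unadjusted limma p under 0.05. The share of all genes at an unadjusted p was not counted in either comparison, so these counts have no background beside them. The median was -0.02 after NR4A1 CEAA against GFP (-0.03 over all genes) and -0.03 for NR4A1 WT against NR4A1 CEAA (0.03 over all genes). Both comparisons with GFP use the same 3 GFP arrays.

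**Figure D1:**
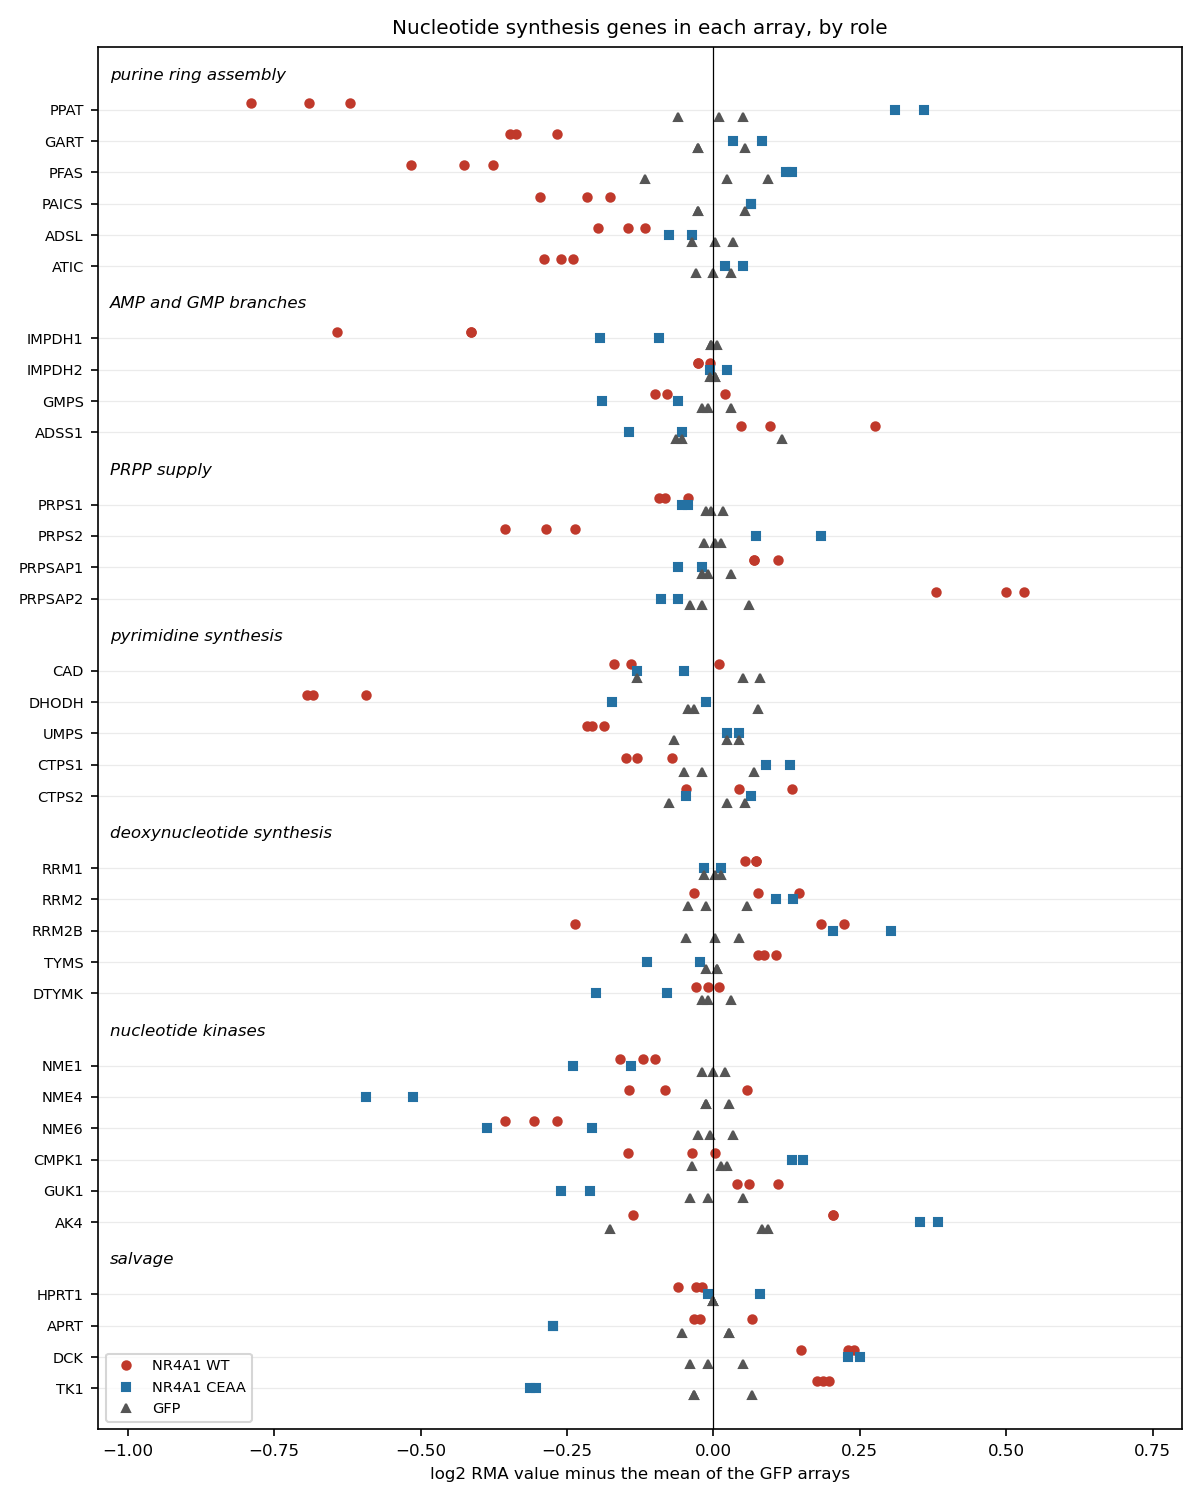
Each point is 1 array, placed on the x axis by its log2 RMA value minus the mean of the 3 GFP arrays, for the 34 genes grouped by role (red circles, NR4A1 WT; blue squares, NR4A1 CEAA; grey triangles, GFP). The NR4A1 WT arrays lie left of every GFP array for all 6 genes of purine ring assembly, and the NR4A1 CEAA arrays lie left of every GFP array for NME1, NME4, NME6 and GUK1. Over the 34 genes this holds for 16 after NR4A1 WT (17.8% of all genes) and for 12 after NR4A1 CEAA (29.1% of all genes).

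PPAT, the amidophosphoribosyltransferase that commits PRPP to the purine pathway, had the largest differences of the 34 genes in both comparisons of NR4A1 WT. It read 10.20, 10.03 and 10.13 in the NR4A1 WT arrays, 11.18 and 11.13 in the NR4A1 CEAA arrays and 10.83, 10.87 and 10.76 in the GFP arrays. The groups did not overlap, with NR4A1 WT lowest and NR4A1 CEAA highest. PPAT fell after NR4A1 WT against GFP by 0.70 ± 0.06 (log2, SE), a 1.62-fold difference (limma adjusted p = 0.000121), and rose after NR4A1 CEAA against GFP by 0.34 ± 0.07 (adjusted p = 0.0115). Directly, NR4A1 WT was lower than NR4A1 CEAA by 2.05-fold (-1.04 ± 0.07, limma adjusted p = 2.8e-05). The rise after NR4A1 CEAA did not pass without NR4A1 CEAA replicate 1 (adjusted p = 0.089) or replicate 2 (0.0559). The probe sets of PPAT differed among themselves. The second brightest set for PPAT moved the same way by -0.79, 0.77 and -1.56 in the 3 comparisons, but the third, with a mean of 6.66, was higher after NR4A1 WT by 0.67 (adjusted p = 0.00223 over all probe sets) and at -0.28 after NR4A1 CEAA (adjusted p = 0.136).

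PFAS, which makes the intermediate formylglycinamidine ribonucleotide, showed the next largest fall in this arm. Its values were 9.02, 8.88 and 8.97 in the NR4A1 WT arrays, 9.52 and 9.53 in the NR4A1 CEAA arrays and 9.28, 9.49 and 9.42 in the GFP arrays. All NR4A1 WT arrays were under all others. PFAS fell by 0.44 ± 0.07 against GFP (limma adjusted p = 0.00227) and was lower than after NR4A1 CEAA by a log2 fold change of -0.57 ± 0.08 (adjusted p = 0.000741). GART, which carries several steps in 1 protein, fell by 0.32 ± 0.05 (adjusted p = 0.00297), ATIC, which closes the ring to IMP, by 0.26 ± 0.05 (adjusted p = 0.00531), and PAICS, a carboxylase and synthetase in the middle of the arm, by 0.23 ± 0.05 (adjusted p = 0.0193). The fall of PAICS did not pass without GFP replicate 2 (adjusted p = 0.0747) or NR4A1 WT replicate 2 (0.0521). None of these 4 genes passed in NR4A1 CEAA against GFP at the default settings, with log2 fold changes of 0.04 to 0.12. With the mean of its probe sets GART was higher there (0.27, limma adjusted p = 0.00626). All 4 were lower in direct comparison of NR4A1 WT with NR4A1 CEAA. ADSL, the lyase that acts in this arm and again on the way to AMP, read 11.54, 11.62 and 11.59 after NR4A1 WT, 11.66 and 11.70 after NR4A1 CEAA and 11.70, 11.74 and 11.77 after GFP. Its NR4A1 WT arrays were also the lowest, at a log2 fold change of -0.15 against GFP that did not pass (limma adjusted p = 0.066), but did with an intensity trend (0.00144) or a filter on dim probe sets (0.0245). The trend also called ADSL lower in direct comparison with NR4A1 CEAA (0.0361). The median of the 6 genes was -0.29 after NR4A1 WT and 0.06 after NR4A1 CEAA, each against GFP, and -0.33 between NR4A1 WT and NR4A1 CEAA.

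**Figure D2:**
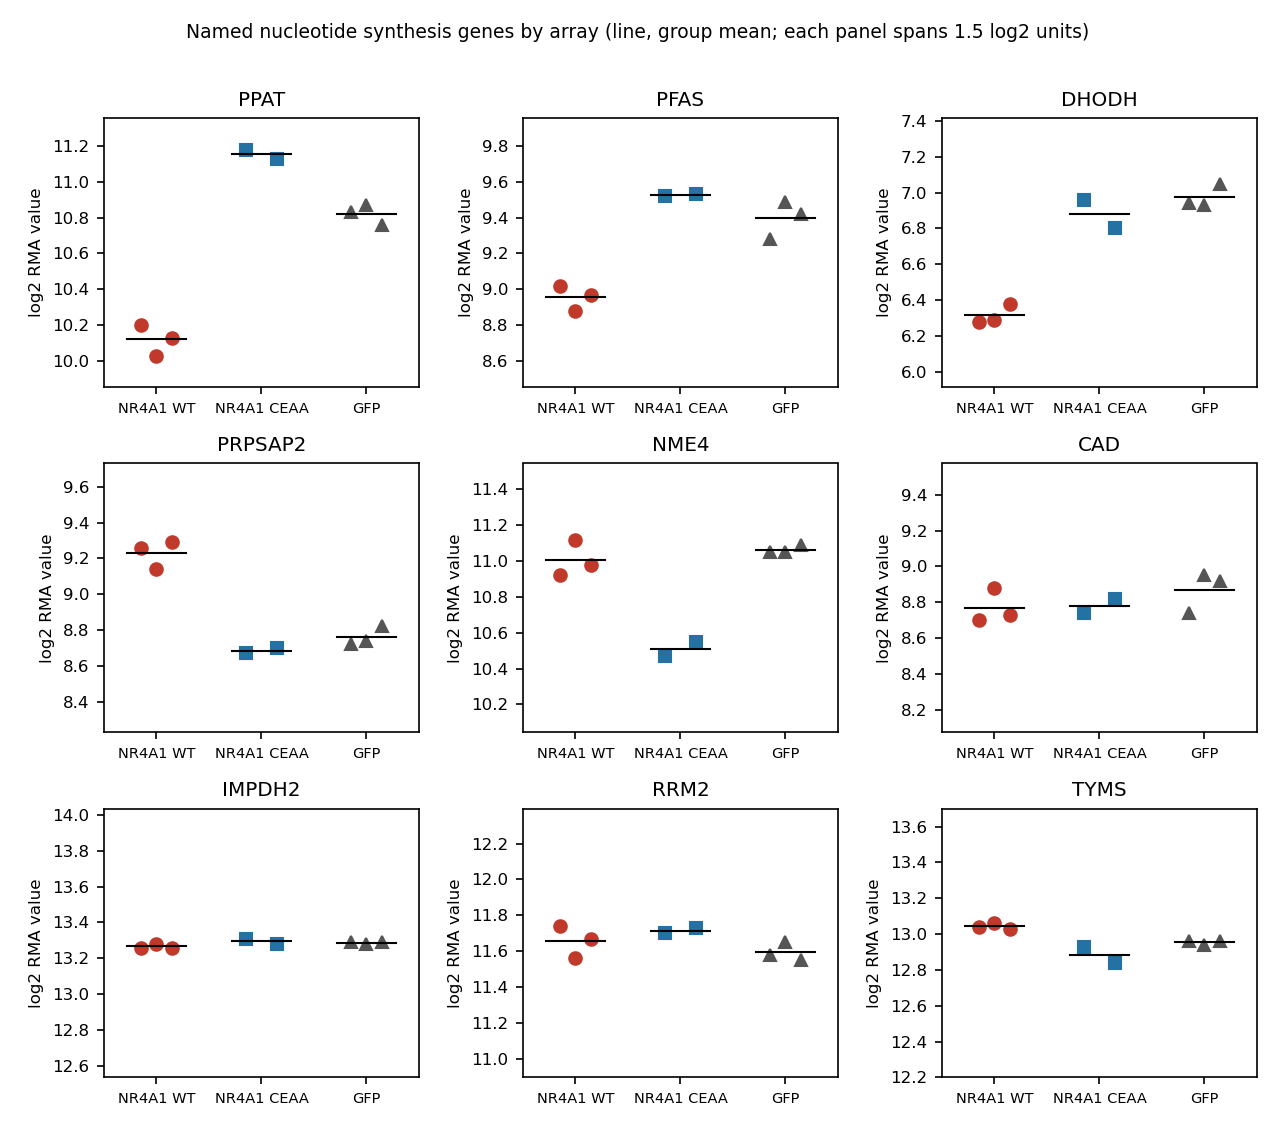
Each panel shows the log2 RMA values of 1 gene by array, with NR4A1 WT, NR4A1 CEAA and GFP from left to right and a line at each group mean; every y axis spans the same 1.5 log2 units. PPAT, PFAS and DHODH were lowest and PRPSAP2 highest after NR4A1 WT, NME4 was lowest after NR4A1 CEAA, and CAD, IMPDH2, RRM2 and TYMS were called in none of the 3 comparisons at the default limma settings.

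Promoter windows of 300 bases, 250 before to 50 after an annotated start, were at hand for 31 of the 34 genes (RefSeq, GRCh38.p14), with 50 windows in all. They were searched on both strands for the E-box CACGTG, a site of MYC and related factors, the NR4A monomer site AAAGGTCA (NBRE) and the ETS site CCGGAAGT. An E-box stood in 8 of the 50 windows (16.0%, against 7.26% of all 35116 windows) and in 7 of the 31 genes (22.6%, against 8.77% of all genes with a window). Among the genes lower after NR4A1 WT it stood in 4 of 10 (40.0%), and among the others in 3 of 21 (14.3%). The 4 genes are PPAT, PAICS, ATIC and DHODH, and the 3 others are AK4, DCK and NME1. The NBRE was found in 1 window of the 50, that of CTPS1 (all windows, 1.22%), and the ETS site in 2, those of GART and NME1 (all windows, 4.14%). A match is a run of letters and not a measured binding site. PPAT and PAICS lie head to head on chromosome 4. The window of PPAT, at chr4:56435566-56435865 on the minus strand, and 1 of those of PAICS, at chr4:56435502-56435801 on the plus strand, share 236 bases and the same E-box. They are shown because these neighbors both fell after NR4A1 WT, PPAT by 1.62-fold and PAICS by 1.17-fold, and ATIC, at chr2:215311809-215312108 on the plus strand, because it holds 2 E-boxes. Capitals mark the E-box.
PPAT: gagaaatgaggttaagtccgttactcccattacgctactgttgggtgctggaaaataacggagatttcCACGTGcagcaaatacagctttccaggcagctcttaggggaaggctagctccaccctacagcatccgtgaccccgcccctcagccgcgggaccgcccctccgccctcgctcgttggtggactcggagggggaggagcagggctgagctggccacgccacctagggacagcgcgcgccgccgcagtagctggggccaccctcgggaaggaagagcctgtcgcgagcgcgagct
PAICS: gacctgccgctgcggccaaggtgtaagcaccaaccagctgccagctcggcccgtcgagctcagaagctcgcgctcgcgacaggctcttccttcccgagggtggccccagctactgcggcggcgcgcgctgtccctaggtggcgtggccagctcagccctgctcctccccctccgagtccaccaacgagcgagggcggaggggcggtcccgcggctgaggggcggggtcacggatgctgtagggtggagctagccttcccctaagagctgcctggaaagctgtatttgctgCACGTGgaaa
ATIC: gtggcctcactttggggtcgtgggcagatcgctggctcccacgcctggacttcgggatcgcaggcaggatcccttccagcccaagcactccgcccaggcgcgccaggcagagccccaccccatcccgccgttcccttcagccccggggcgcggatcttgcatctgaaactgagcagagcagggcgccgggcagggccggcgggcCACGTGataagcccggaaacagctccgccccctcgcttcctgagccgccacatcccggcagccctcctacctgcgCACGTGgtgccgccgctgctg

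At the branch from IMP to GMP, IMPDH1 and IMPDH2 are isozymes of the rate-limiting dehydrogenase. IMPDH1 read 7.33, 7.10 and 7.33 in the NR4A1 WT arrays, 7.55 and 7.65 in the NR4A1 CEAA arrays and 7.75, 7.74 and 7.74 in the GFP arrays, in that order with no overlap. It fell after NR4A1 WT by 0.49 ± 0.07 against GFP, a 1.40-fold difference (limma adjusted p = 0.00201), did not pass after NR4A1 CEAA (-0.14 ± 0.08, adjusted p = 0.275), and was lower in NR4A1 WT than in NR4A1 CEAA arrays (-0.35 ± 0.08, adjusted p = 0.0124). This last call was lost without NR4A1 CEAA replicate 2 (adjusted p = 0.0945). IMPDH2 read 13.26, 13.28 and 13.26 in the NR4A1 WT arrays, 13.31 and 13.28 in the NR4A1 CEAA arrays and 13.29, 13.28 and 13.29 in the GFP arrays. These 8 values lie between 13.26 and 13.31, and the 95% confidence interval of its log2 fold change after NR4A1 WT against GFP was -0.12 to 0.08. GMPS, the GMP synthetase, was at -0.06 after NR4A1 WT and -0.13 after NR4A1 CEAA against GFP, and ADSS1, an adenylosuccinate synthase of the AMP branch, at 0.14 and -0.10. Neither passed in any of the 3 comparisons at the default settings. With the mean of its probe sets GMPS was lower after NR4A1 WT than in GFP (-0.18, adjusted p = 0.0348). ADSS1 was higher in NR4A1 WT than in NR4A1 CEAA arrays with the intensity trend (adjusted p = 0.0482), the filter on dim probe sets (0.0427) or repeated quantile normalization (0.0441). The second probe set of GMPS was lower in NR4A1 WT than in NR4A1 CEAA arrays by a log2 fold change of -0.34 (adjusted p = 0.00734 over all probe sets), where the brightest was at 0.07.

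PRPP itself is made by PRPS1 and PRPS2, and PRPSAP1 and PRPSAP2 are their associated proteins. PRPSAP2 read 9.26, 9.14 and 9.29 in the NR4A1 WT arrays, 8.67 and 8.70 in the NR4A1 CEAA arrays and 8.72, 8.74 and 8.82 in the GFP arrays. All NR4A1 WT arrays were above all others. PRPSAP2 rose by 0.47 ± 0.06 against GFP (1.39-fold, limma adjusted p = 0.000804) and was higher than after NR4A1 CEAA by 0.54 ± 0.07 (adjusted p = 0.000467), the largest rise among the 34 genes in both comparisons. PRPS2 moved the other way. It fell after NR4A1 WT by 0.29 ± 0.06 against GFP (limma adjusted p = 0.00688), with 0.13 after NR4A1 CEAA (adjusted p = 0.191), and its second probe set fell by 0.34 (adjusted p = 0.00924 over all probe sets). PRPS1 (-0.08 after NR4A1 WT, -0.05 after NR4A1 CEAA) and PRPSAP1 (0.08 and -0.04) did not pass in any comparison at the default settings. PRPSAP1 was higher in NR4A1 WT than in NR4A1 CEAA arrays, by 0.12, with the intensity trend (adjusted p = 0.0263) or the filter on dim probe sets (0.0471).

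In pyrimidine synthesis, DHODH, the mitochondrial enzyme that oxidizes dihydroorotate to orotate and a drug target studied in AML, showed the second largest fall of the 34 genes. It read 6.28, 6.29 and 6.38 in the NR4A1 WT arrays, 6.96 and 6.80 in the NR4A1 CEAA arrays and 6.94, 6.93 and 7.05 in the GFP arrays. The NR4A1 WT arrays lay apart below, and the NR4A1 CEAA and GFP arrays overlapped. DHODH fell by 0.66 ± 0.06 against GFP, a 1.58-fold difference (limma adjusted p = 0.000242), stood at -0.09 ± 0.07 after NR4A1 CEAA (adjusted p = 0.437), and was lower in NR4A1 WT than in NR4A1 CEAA arrays (-0.56 ± 0.07, adjusted p = 0.00062). Its second probe set fell by 1.06 against GFP (adjusted p = 0.00027 over all probe sets). The third, dim set of DHODH (mean 4.55) was at -0.17 there (adjusted p = 0.519) and higher after NR4A1 CEAA by 0.54 (adjusted p = 0.049). Between NR4A1 WT and NR4A1 CEAA this set was at -0.71 (adjusted p = 0.00911). The window of DHODH, at chr16:72008494-72008793 on the plus strand of GRCh38.p14, is shown because its fall was the largest outside the purine arm, with the E-box in capitals.
DHODH: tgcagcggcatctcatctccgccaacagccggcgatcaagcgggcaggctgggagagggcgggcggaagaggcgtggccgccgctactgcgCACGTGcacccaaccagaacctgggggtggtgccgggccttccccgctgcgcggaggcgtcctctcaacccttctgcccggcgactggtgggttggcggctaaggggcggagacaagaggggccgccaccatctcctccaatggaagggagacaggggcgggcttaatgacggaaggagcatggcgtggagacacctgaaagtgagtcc

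CAD, the multienzyme protein that starts pyrimidine synthesis and sets its rate, read 8.70, 8.88 and 8.73 in the NR4A1 WT arrays, 8.74 and 8.82 in the NR4A1 CEAA arrays and 8.74, 8.95 and 8.92 in the GFP arrays. These ranges overlap, and the 95% confidence interval of the difference of NR4A1 WT from GFP was -0.28 to 0.08. UMPS, which ends the arm at UMP, fell after NR4A1 WT by 0.20 ± 0.05 (limma adjusted p = 0.0228) and was lower than after NR4A1 CEAA by a log2 fold change of -0.24 ± 0.06 (adjusted p = 0.0122). The fall against GFP was lost without GFP replicate 1 (0.0826) or 3 (0.086) and without NR4A1 WT replicate 1 (0.0505) or 3 (0.0627), and the difference from NR4A1 CEAA without NR4A1 CEAA replicate 1 (0.0585) or 2 (0.0757). CTPS1, a CTP synthase that dividing lymphocytes depend on, passed only between NR4A1 WT and NR4A1 CEAA (-0.22 ± 0.06, limma adjusted p = 0.0215), with -0.12 after NR4A1 WT and 0.11 after NR4A1 CEAA against GFP. That call was lost without NR4A1 CEAA replicate 1 (0.124) or 2 (0.0731) and without NR4A1 WT replicate 2 (0.0526) or 3 (0.0523). CTPS2 was within 0.04 of 0 in all 3 comparisons.

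**Figure D3:**
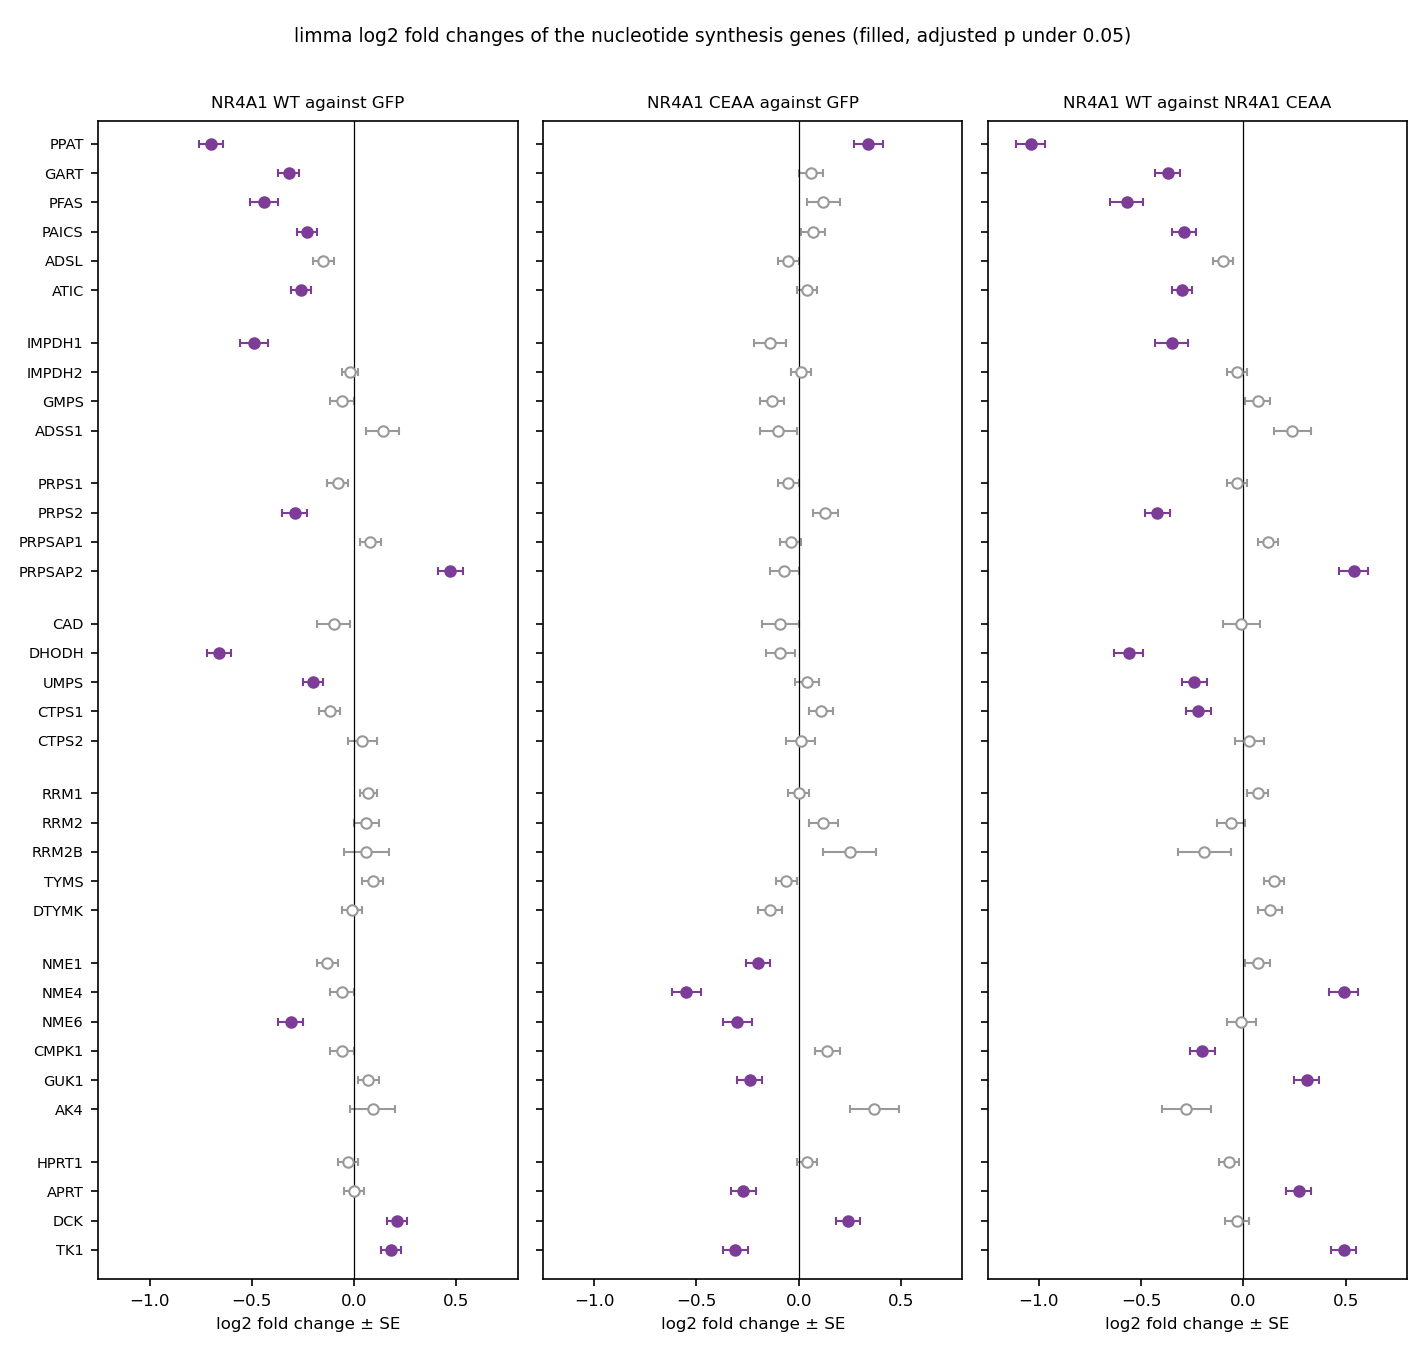
Points are limma log2 fold changes and bars their standard errors for the 34 genes, in the same order of roles as above, for each receptor form set against GFP and, in the right panel, for NR4A1 WT set against NR4A1 CEAA; filled points passed an adjusted p under 0.05 at the default settings. PPAT is at -0.70 after NR4A1 WT and 0.34 after NR4A1 CEAA, and the 5 deoxynucleotide genes have open points in all 3 panels.

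None of the 5 genes of deoxynucleotide synthesis passed in any of the 3 comparisons with the brightest probe set and all arrays, by limma at its default settings or by Rank Product. Other limma settings on the same probe sets called some of them. TYMS passed between NR4A1 WT and NR4A1 CEAA with an intensity trend (adjusted p = 0.00064), a filter on dim probe sets (0.025) or median centering (0.0421), and in NR4A1 WT against GFP with the trend (0.0238), which also called DTYMK lower after NR4A1 CEAA (0.0465). At an unadjusted limma p under 0.05 there were 2 differences, DTYMK in NR4A1 CEAA against GFP and TYMS in NR4A1 WT against NR4A1 CEAA. The share of all genes at that threshold was not counted. RRM2, the reductase subunit that rises in S phase, read 11.74, 11.56 and 11.67 in the NR4A1 WT arrays, 11.70 and 11.73 in the NR4A1 CEAA arrays and 11.58, 11.65 and 11.55 in the GFP arrays. The ranges of NR4A1 WT and GFP overlap, and the 95% confidence interval of their difference was -0.08 to 0.20. TYMS, the thymidylate synthase, read 13.04, 13.06 and 13.03 in the NR4A1 WT arrays, 12.93 and 12.84 in the NR4A1 CEAA arrays and 12.96, 12.94 and 12.96 in the GFP arrays. The NR4A1 WT arrays were the highest and the NR4A1 CEAA arrays the lowest, at differences from GFP of 0.09 (interval -0.02 to 0.20) and -0.06 (interval -0.19 to 0.06) that did not pass at the default settings. RRM1, the large subunit, was at 0.07 after NR4A1 WT, and DTYMK, the thymidylate kinase, at -0.01 after NR4A1 WT and -0.14 after NR4A1 CEAA. RRM2B, the p53-inducible subunit, was at 0.06 after NR4A1 WT, where its arrays had the widest spread of the 34 genes (SD 0.25), and at 0.25 after NR4A1 CEAA (limma adjusted p = 0.225). This last difference passed when only the groups compared were fitted (adjusted p = 0.0349) and without NR4A1 WT replicate 3 (0.0311).

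Other probe sets of these genes gave larger differences after NR4A1 CEAA. The second probe set of TYMS fell by 0.91 ± 0.07 against GFP (adjusted p = 0.000364 over all probe sets), and that of RRM2 stood at -0.26 ± 0.07 (adjusted p = 0.0538), where its brightest was at 0.12. Between NR4A1 WT and NR4A1 CEAA the second sets were higher after NR4A1 WT by 1.00 for TYMS (adjusted p = 5.46e-05) and 0.42 for RRM2 (adjusted p = 0.00383). Which transcripts or exons the probes of each set read is not given here.

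**Figure D4:**
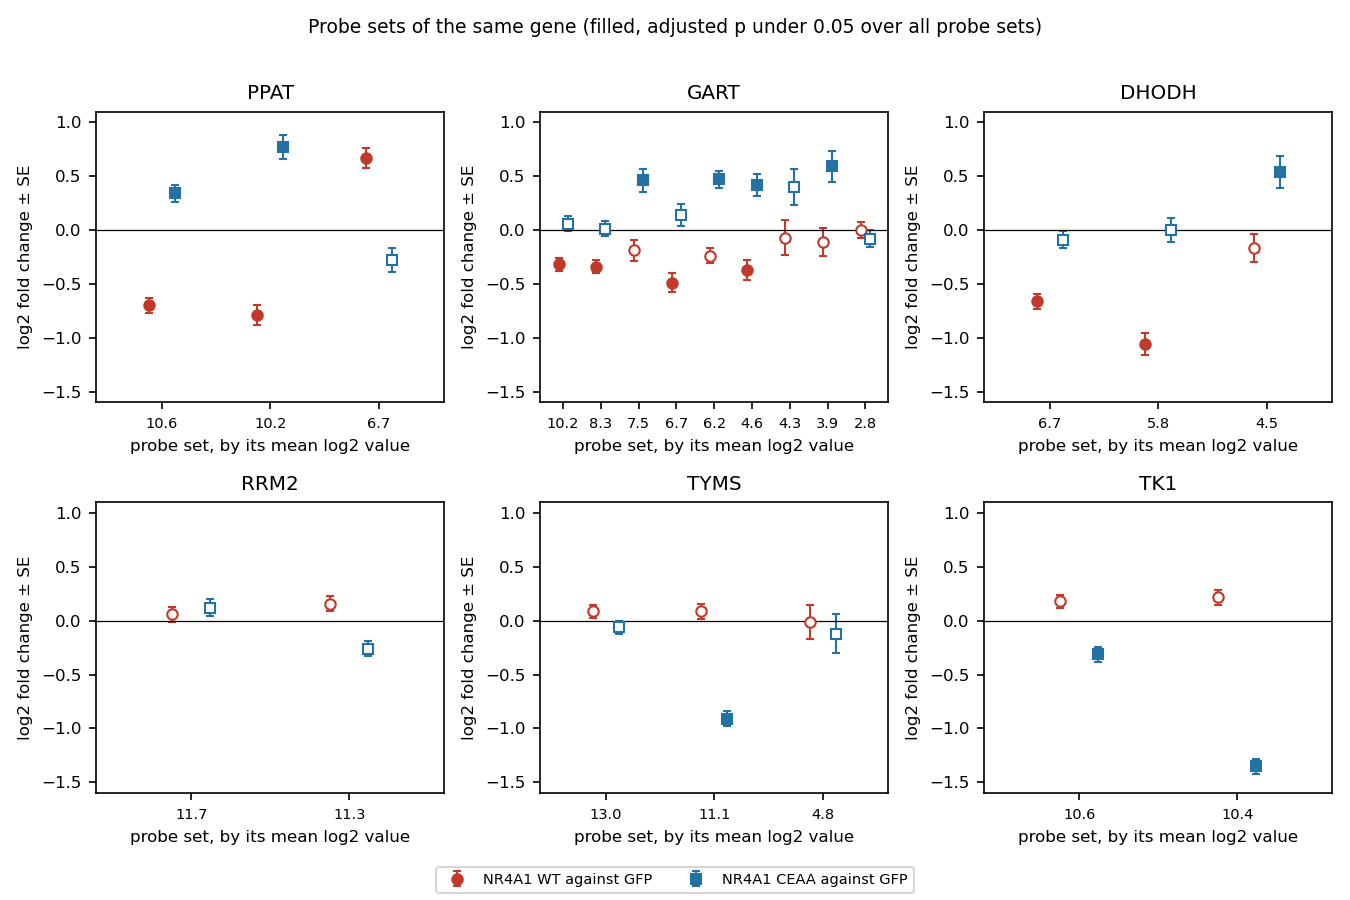
Each x position is 1 probe set of the gene, labeled with its mean log2 value over the 8 arrays, and the y axis gives its limma log2 fold change ± SE (red circles, NR4A1 WT against GFP; blue squares, NR4A1 CEAA against GFP; filled, adjusted p under 0.05 over all probe sets). The third set of PPAT lies opposite to the first ones at 0.67, and the second sets of TYMS and TK1 reach -0.91 and -1.35 after NR4A1 CEAA.

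The 34 genes have 77 probe sets, 43 of them besides those followed. Over all 77, limma called 17 lower and 2 higher after NR4A1 WT (5.56% and 5.06% of all 54613 probe sets), 6 lower and 7 higher after NR4A1 CEAA (6.81% and 5.91%), each against GFP, and 25 lower and 10 higher between NR4A1 WT and NR4A1 CEAA (10.9% and 11.2%). Those shares are of all probe sets, dim ones and ones without a gene symbol included. Probe sets of the same gene share its transcripts and are not separate genes. Of the 7 that were higher after NR4A1 CEAA, 4 belong to GART, at 0.42 to 0.59, while its brightest stood at 0.06. All 4 are dimmer, with means of 7.55, 6.20, 4.56 and 3.87, of which the last pair lies below the median of all probe sets.

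Of the 6 kinases that add phosphates, 4 were lower after NR4A1 CEAA than in GFP, at a median of -0.22, and 1 was lower after NR4A1 WT, at a median of -0.06. Of all genes, 12.1% were lower after NR4A1 CEAA (22.6% of the brighter genes) and 10.3% after NR4A1 WT (18.6% of the brighter genes). NME4, a nucleoside diphosphate kinase of mitochondria, read 10.92, 11.12 and 10.98 in the NR4A1 WT arrays, 10.47 and 10.55 in the NR4A1 CEAA arrays and 11.05, 11.05 and 11.09 in the GFP arrays. The NR4A1 CEAA arrays lay below all others, and NR4A1 WT overlapped with GFP. NME4 fell after NR4A1 CEAA by 0.55 ± 0.07 against GFP, a 1.47-fold difference (limma adjusted p = 0.00218), stood at -0.06 after NR4A1 WT (adjusted p = 0.586), and was higher after NR4A1 WT than after NR4A1 CEAA by 0.49 ± 0.07 (adjusted p = 0.0011). NME6, of the same family, fell in both comparisons with GFP, by 0.31 ± 0.06 after NR4A1 WT (limma adjusted p = 0.00866) and by 0.30 ± 0.07 after NR4A1 CEAA (adjusted p = 0.0191), with a 95% interval of -0.17 to 0.15 between NR4A1 WT and NR4A1 CEAA. GUK1, the guanylate kinase, fell after NR4A1 CEAA by 0.24 ± 0.06 (adjusted p = 0.0217) and was higher after NR4A1 WT than after NR4A1 CEAA by 0.31 (adjusted p = 0.00381), although its second, dim probe set was at 0.05 and 0.23. NME1 fell after NR4A1 CEAA by 0.20 ± 0.06 (adjusted p = 0.045), with -0.13 after NR4A1 WT (adjusted p = 0.126). CMPK1, which phosphorylates UMP and CMP, passed only between NR4A1 WT and NR4A1 CEAA (-0.20 ± 0.06, adjusted p = 0.0386), and AK4, a mitochondrial adenylate kinase, was at 0.37 ± 0.12 after NR4A1 CEAA (adjusted p = 0.075). AK4 passed there with array weights (0.0365), only the groups compared (0.0436), the filter on dim probe sets (0.0433), the replicate block (0.0428) and without NR4A1 WT replicate 1 (0.0314). With the intensity trend, NME1 also passed after NR4A1 WT (0.00241) and CMPK1, at 0.14, after NR4A1 CEAA (0.0171).

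Several of these kinase calls were lost when single arrays were left out. Over these fits the log2 fold change after NR4A1 CEAA against GFP was -0.39 to -0.21 for NME6, -0.26 to -0.21 for GUK1 and -0.24 to -0.15 for NME1, and that of CMPK1 between NR4A1 WT and NR4A1 CEAA was -0.23 to -0.16. That of NME6 after NR4A1 CEAA was lost without NR4A1 CEAA replicate 1 (adjusted p = 0.143) and without GFP replicate 1 (0.0606) or 2 (0.0528). That of GUK1 was lost without NR4A1 CEAA replicate 1 (0.0877) or 2 (0.132) and without GFP replicate 1 (0.0714) or 2 (0.0557). That of NME1 was lost without each of the NR4A1 CEAA arrays (0.259 and 0.0792), each of the GFP arrays (0.0905, 0.105 and 0.122) and NR4A1 WT replicate 3 (0.062). The difference of CMPK1 was kept without NR4A1 WT replicate 1 and gave adjusted p-values of 0.0574 to 0.162 without any other array. The calls of NME4, and that of NME6 after NR4A1 WT, held with each array left out in turn.

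Of the 3 genes higher after NR4A1 WT, 2 act in salvage. TK1, the cytosolic thymidine kinase of dividing cells, read 10.79, 10.80 and 10.81 in the NR4A1 WT arrays, 10.31 and 10.30 in the NR4A1 CEAA arrays and 10.58, 10.58 and 10.68 in the GFP arrays. The groups did not overlap, in the order NR4A1 CEAA, GFP, NR4A1 WT, which is that of PPAT turned round. TK1 rose after NR4A1 WT by 0.18 ± 0.05 (limma adjusted p = 0.0335), fell after NR4A1 CEAA by 0.31 ± 0.06 (adjusted p = 0.0077), and differed between them by 0.49 ± 0.06 (adjusted p = 0.000327). The rise was lost when any array but GFP replicate 3 was left out (adjusted p = 0.0572 to 0.116), and the fall without NR4A1 CEAA replicate 1 (0.0565) or 2 (0.0543). Its second probe set fell by 1.35 ± 0.07 after NR4A1 CEAA (adjusted p = 0.000141 over all probe sets) and was at 0.22 after NR4A1 WT (adjusted p = 0.0798). DCK, the deoxycytidine kinase that activates cytarabine, rose by 0.21 ± 0.05 after NR4A1 WT (limma adjusted p = 0.0244) and by 0.24 ± 0.06 after NR4A1 CEAA (adjusted p = 0.0236).

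DCK read 11.11, 11.10 and 11.02 in the NR4A1 WT arrays, 11.12 and 11.10 in the NR4A1 CEAA arrays and 10.92, 10.86 and 10.83 in the GFP arrays, which lay below all others. Its first call was lost without GFP replicate 2 (adjusted p = 0.0793) or 3 (0.0882) or NR4A1 WT replicate 1 (0.0631) or 2 (0.0626), and the second without GFP replicate 2 (0.0681) or 3 (0.0775) or NR4A1 CEAA replicate 1 (0.129) or 2 (0.104). APRT, which recovers adenine, fell after NR4A1 CEAA by 0.27 ± 0.06 (limma adjusted p = 0.0167), was at 0.00 after NR4A1 WT, and was higher after NR4A1 WT than after NR4A1 CEAA by 0.27 ± 0.06 (adjusted p = 0.00882). Its fall was lost without GFP replicate 1 (0.0557) or 3 (0.0576) or NR4A1 CEAA replicate 1 (0.096) or 2 (0.0904), and the difference without either NR4A1 CEAA array (0.0539 and 0.0539). HPRT1, which recovers hypoxanthine and guanine, was within 0.07 of 0 in all 3 comparisons.

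Seen by gene at the default settings, 8 of the 34 (23.5%, against 5.14% of all genes) were lower after NR4A1 WT against both GFP and NR4A1 CEAA with no call after NR4A1 CEAA, namely GART, PFAS, PAICS, ATIC, IMPDH1, PRPS2, DHODH and UMPS. PPAT and TK1 were called in opposite directions after NR4A1 WT and after NR4A1 CEAA against the same GFP arrays, and differed between them directly, as did 1.39% of all genes in the direction of PPAT and 1.55% in that of TK1. NME4, GUK1 and APRT (8.82%, against 7.03% of all genes) were lower after NR4A1 CEAA against both GFP and NR4A1 WT, with no call in NR4A1 WT against GFP. The remaining calls were of DCK and NME6, alike in both comparisons with GFP, of PRPSAP2 after NR4A1 WT, of NME1 after NR4A1 CEAA, and of CTPS1 and CMPK1 between NR4A1 WT and NR4A1 CEAA. In 15 of the 34 genes (44.1%, against 60.4% of all genes) no comparison passed at these settings. All 34 lie among the brighter genes, of which a larger share was called, and these patterns were not counted among those alone. Against GFP, the calls of PPAT, GART, PFAS, ATIC, IMPDH1, PRPS2, DHODH, NME6 and PRPSAP2 after NR4A1 WT held with each array left out in turn.

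The wider pathway outside these genes was read from 56 further genes of salvage, breakdown and nucleoside transport, of which 49 were measured. After NR4A1 WT 13 of the 49 were lower and 2 higher than in GFP (all genes, 10.3% and 9.97%). After NR4A1 CEAA 9 were lower and none higher by limma (all genes, 12.1% and 7.14%), and by Rank Product 0 and 0. An unadjusted limma p under 0.05 gave 12 and 0, and the share of all genes there was not counted. NR4A1 WT was lower than NR4A1 CEAA for 11 of the 49 and higher for 12 (all genes, 13.4% and 18.0%). Their medians were -0.06, -0.09 and -0.05. AMPD2, an AMP deaminase that turns AMP back to IMP, fell most, to 8.19, 8.09 and 8.19 in the NR4A1 WT arrays, with 8.96 and 8.98 in the NR4A1 CEAA arrays, against 9.26, 9.18 and 9.14 in the GFP arrays. PNP, the purine nucleoside phosphorylase, read 10.06, 9.94 and 9.98 in the NR4A1 WT arrays, 10.62 and 10.72 in the NR4A1 CEAA arrays and 10.89, 10.89 and 10.96 in the GFP arrays. In both genes the NR4A1 WT arrays were far below the GFP arrays and the NR4A1 CEAA arrays slightly below them. After NR4A1 WT, AMPD2 was 2.05-fold lower than in GFP (limma adjusted p = 1.03e-05) and PNP 1.89-fold (adjusted p = 2.1e-05). After NR4A1 CEAA they fell by 0.22 (adjusted p = 0.0396) and 0.24 (adjusted p = 0.03), and both of these calls were lost without any 1 of the NR4A1 CEAA or GFP arrays (adjusted p = 0.0623 to 0.194), that of AMPD2 also without NR4A1 WT replicate 3 (0.0527).

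SAMHD1, a hydrolase of deoxynucleoside triphosphates that also inactivates the active form of cytarabine, was the largest rise. It read 9.53, 9.64 and 9.53 in the NR4A1 WT arrays, 8.63 and 8.68 in the NR4A1 CEAA arrays and 8.60, 8.77 and 8.76 in the GFP arrays, the last groups overlapping. It was 1.81-fold higher after NR4A1 WT than in GFP (limma adjusted p = 6.71e-05) and 1.88-fold higher than after NR4A1 CEAA (adjusted p = 6.59e-05). DCTPP1, a pyrophosphatase of deoxycytidine triphosphate, fell after NR4A1 WT by 0.67 (adjusted p = 4.7e-05) and AMPD3, a second AMP deaminase, by 0.61 (adjusted p = 0.00351). Both were lower than after NR4A1 CEAA too, by log2 fold changes of -0.56 and -0.50, the second not without NR4A1 CEAA replicate 2 (adjusted p = 0.0856). Among nucleoside transporters, the equilibrative SLC29A2 fell by 0.74 (adjusted p = 0.000529) and SLC29A1, which also carries cytarabine into cells, by 0.44 (adjusted p = 0.00183). The second probe set of SLC29A2 did not pass by limma (adjusted p = 0.479 over second probe sets). SLC28A3, a concentrative transporter, passed only between NR4A1 WT and NR4A1 CEAA (-0.51, adjusted p = 0.00963), not without NR4A1 CEAA replicate 2 (0.0822). The difference of SLC29A1 there (-0.31, adjusted p = 0.0105) was lost without NR4A1 CEAA replicate 1 (-0.30) or 2 (-0.33). Its second probe set was at -0.11 there and did not pass by limma (adjusted p = 0.443 over second probe sets).

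Of the other salvage genes, TK2, the mitochondrial thymidine kinase, rose by 0.34 after NR4A1 WT against GFP (limma adjusted p = 0.0085), AK1, an adenylate kinase, fell by 0.38 (adjusted p = 0.0224), and UPP1, a uridine phosphorylase near the array medians, fell by 0.41 (adjusted p = 0.0479). AK1 was lost without GFP or NR4A1 WT replicate 1 or 3 (0.0513 to 0.0743), and UPP1 without any array but replicate 2 of GFP or NR4A1 WT (0.0744 to 0.147). After NR4A1 CEAA against GFP, ADK, the adenosine kinase, fell by 0.45 (adjusted p = 0.00415), NME3 by 0.42 (adjusted p = 0.00464) and DGUOK, the mitochondrial deoxyguanosine kinase, by 0.30 (adjusted p = 0.00668, and 0.056 without NR4A1 CEAA replicate 1). The second probe set of ADK went the other way, at 1.02 (adjusted p = 0.0179 over second probe sets). NT5C, a nucleotidase, fell by 0.49 (adjusted p = 0.00892, and 0.0835 without NR4A1 CEAA replicate 1), NUDT1, which clears oxidized nucleotides, by 0.47 (adjusted p = 0.00305), and AMPD1 by 0.35 (adjusted p = 0.0374) at values below the median in all 8 arrays. AMPD1 was lost without GFP replicate 2 (0.0969) or 3 (0.108) or NR4A1 CEAA replicate 1 (0.178) or 2 (0.129).

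**Figure D5:**
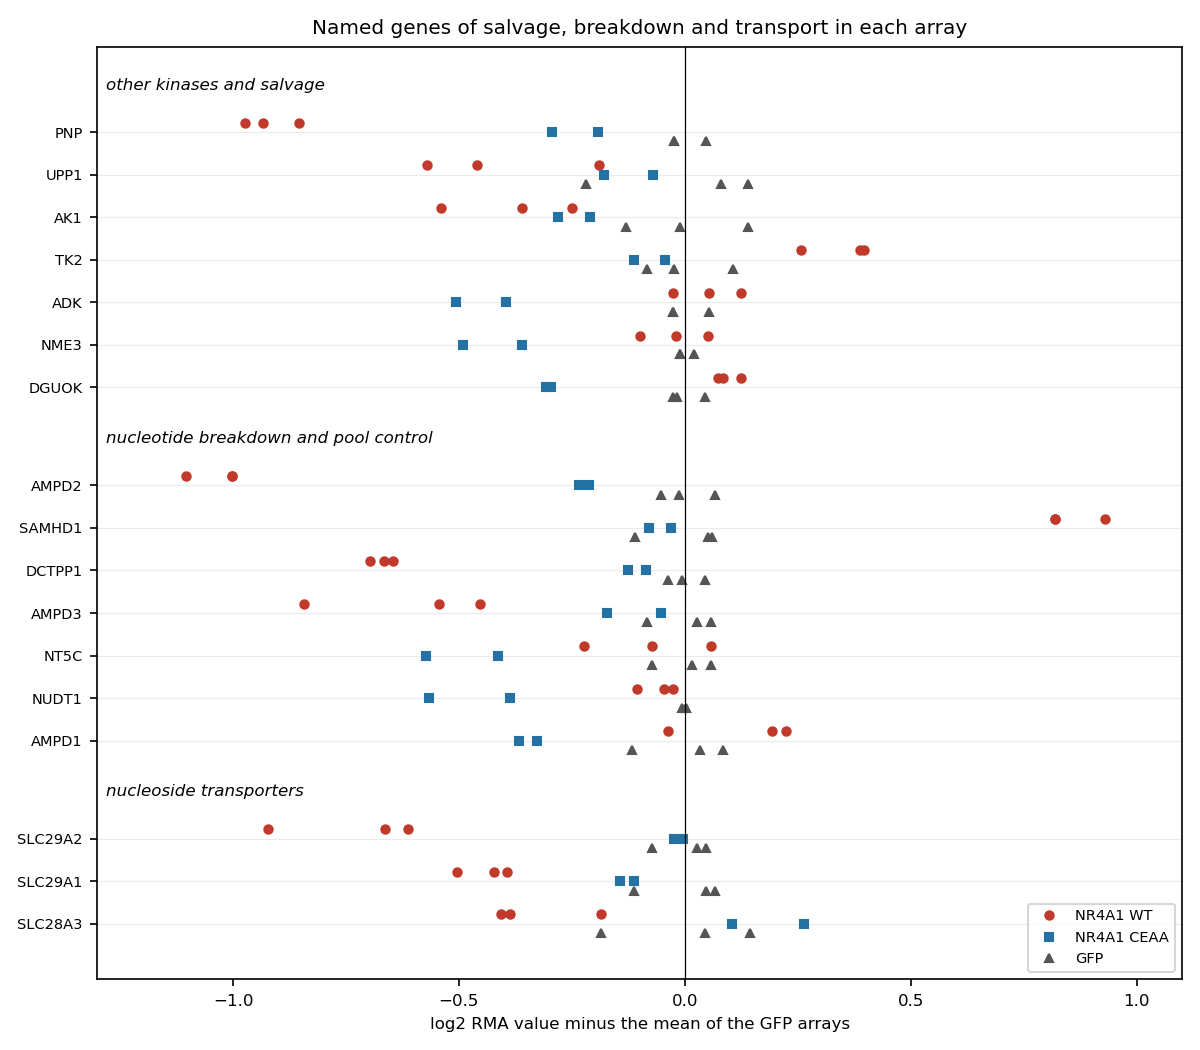
Each point is 1 array, placed by its log2 RMA value minus the mean of the 3 GFP arrays, for the named genes of other salvage, breakdown and transport (red circles, NR4A1 WT; blue squares, NR4A1 CEAA; grey triangles, GFP). SAMHD1 lies far right and PNP, AMPD2, DCTPP1, AMPD3 and SLC29A2 far left of the GFP arrays after NR4A1 WT, while ADK, NME3, NT5C and NUDT1 lie left of them after NR4A1 CEAA.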

How the data were processed

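Kasumi-1 RNA of 8 arrays was measured. The authors deposited log2 intensities per probe set, made from the scans by Robust Multiarray Analysis in RMA Express, with background correction, quantile normalization between arrays and probe summaries. Its version is not given in the sources used here. Quantile normalization gives the probe intensities of all arrays 1 distribution before they are summarized, so a shift shared by all genes cannot be seen. The summarized values keep small differences between arrays. Arrays carry no read depth, and the number of arrays per group limits the precision.

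Of 54613 probe sets, 41091 had exactly 1 gene symbol, 1801 several and 11721 none. Genes were read from the first kind only, while the fit of all probe sets and the array medians used every kind. The 3 groups were put into 1 linear model with limma 3.58.1 (lmFit, eBayes) in R 4.3.3, with 3.04 prior and 8.04 total degrees of freedom and no covariate, and p-values were adjusted over all 19775 genes. Fits of all probe sets were adjusted over all of them. The intervals are at 95%. Rank Product used every pair of arrays from the 2 groups, 100 permutations within arrays and a q under 0.05. The other alternatives were an intensity trend, array weights, leaving out each array, an adjusted p under 0.01, the replicate block, the mean or the second brightest probe set of a gene, a filter on dim probe sets, fits of only the compared groups, median centering and repeated quantile normalization. The fit was tested on simulated data.

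Values by array are given for genes past the test with a log2 fold change of 0.5 or more in size, for PPAT, CAD, IMPDH2, RRM2 and TYMS, and for a few more chosen after their values were seen (ADSL, IMPDH1, TK1, DCK, AMPD2, PNP and SAMHD1). From each list of the wider pathway, up to 4 genes with the largest change past the test in a comparison are named. The members and lists were chosen with earlier results of these data known. Promoter windows are those of RefSeq on GRCh38.p14.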

Additional observations from a re-analysis of the deposited data

How the results depend on the processing

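With each array left out in turn, the genes lower after NR4A1 WT than in GFP numbered 9 to 10, those higher 1 to 2, and the median was -0.06 to -0.03. Without 1 GFP or NR4A1 WT array, NR4A1 CEAA against GFP gave 2 to 6 lower and 1 to 3 higher. NR4A1 WT against NR4A1 CEAA gave 9 to 11 lower and 5 higher in these fits. With any 1 array left out, the medians of these comparisons were -0.04 to -0.01 and -0.04 to -0.03. Fits without an NR4A1 CEAA array leave 1 array in that group and called fewer genes in both comparisons with it, so their counts are left out. Without 1 GFP or NR4A1 WT array, 7.83% to 9.69% of all genes were lower and 7.3% to 8.97% higher after NR4A1 WT. These shares were 7.99% to 12.7% and 3.86% to 7.78% after NR4A1 CEAA against GFP. For NR4A1 WT against NR4A1 CEAA they were 12.1% to 13.3% and 16.6% to 17.7%. With the second brightest probe set, which 23 of the 34 genes have, NR4A1 WT against GFP gave 6 lower, 0 higher and a median of -0.12. NR4A1 CEAA against GFP gave 4 lower, 1 higher and -0.05, and NR4A1 WT against NR4A1 CEAA 7 lower, 4 higher and -0.13. Of the 10523 genes with such a set, 6.27% were lower and 5.90% higher, 9.02% and 8.27%, and 13.6% and 13.4% in these comparisons. Rank Product called 2 lower and 0 higher, 0 and 0, and 1 and 0 in these comparisons, and has no fold change of its own. At an adjusted p under 0.01, PPAT, GART, PFAS, ATIC, IMPDH1, PRPS2, DHODH and NME6 stayed lower after NR4A1 WT than in GFP. Only 1 gene, PRPSAP2, stayed higher there. After NR4A1 CEAA 2 were lower and 0 higher, and 7 were lower between NR4A1 WT and NR4A1 CEAA. The share of all genes past that threshold was not counted. Only the groups compared gave 4 higher after NR4A1 CEAA (8.48% of all genes). For NR4A1 WT against NR4A1 CEAA, 8 were higher with the intensity trend (19.7% of all genes). With the filter on dim probe sets 8 were higher there too (28.8% of the brighter genes). Centering on array medians put the median at -0.04 after NR4A1 CEAA and at 0 between NR4A1 WT and NR4A1 CEAA, and repeated quantile normalization at 0.01 and -0.06. The cause of these shifts was not tested, beyond fewer genes or arrays in some of the fits.

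Correlations between arrays with the same replicate number were -0.04 to 0.09. With so few arrays per group, these values cannot show whether arrays of the same number were handled together. The labels do not say, and pairing by number stays undecided. The replicate block left 3 genes lower after NR4A1 CEAA (8.31% of all genes). It ended the limma calls of PAICS (adjusted p = 0.0552), UMPS (0.0588) and TK1 (0.0629) after NR4A1 WT.

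Of 165 summary values under all alternatives, 126 kept within the replicate spread or 1.5 times the count and 39 did not. Of 2309 values of single genes, 2087 were called, or not called, as in the main fit. Among these, 56 changed sign while called in neither fit. Another 182 lost their call, 31 gained one, and 9 with a call in at least 1 of the fits turned direction. With the second probe set these were RRM2 (-0.26), GUK1 (0.05) and ADK (1.02) after NR4A1 CEAA against GFP, and GMPS (-0.34), RRM2 (0.42) and ADK (-1.10) between NR4A1 WT and NR4A1 CEAA. With the mean of all probe sets they were ADK after NR4A1 CEAA (0.29) and, between NR4A1 WT and NR4A1 CEAA, RRM2 (0.18) and ADK (-0.30). The mean of probe sets also ended the calls of UMPS (limma adjusted p = 0.132), TK2 (0.0678) and SLC29A2 (0.0592) after NR4A1 WT. The second set ended that of PAICS between NR4A1 WT and NR4A1 CEAA (0.057). Calls gained with the mean included GART (0.27, limma adjusted p = 0.00626) and TYMS (-0.36, 0.0116) after NR4A1 CEAA against GFP. Between NR4A1 WT and NR4A1 CEAA they included TYMS (0.42, 0.00308) and AK4 (-0.27, 0.024).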
